A study of Mus musculus with 10 samples.

Results

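The genes described here encode the subunits of voltage-gated sodium and calcium channels, in retinal ganglion cells (RGCs) of the adult mouse before and after optic nerve crush (ONC). Members were chosen by symbol, as every Scn gene ending in a number with a or b and every gene whose name begins with Cacna, Cacnb or Cacng, if it had at least 20 unique molecular identifiers (UMIs, each standing for 1 captured RNA molecule) over the 10 libraries. Of 40 matching symbols 36 reached that minimum, among 18259 genes that did so in all. The lowest count inside it was that of Cacna1f, with 21 UMIs, and the symbols outside it were Cacna1s with 9, Cacng6 with 8, Scn10a with 2 and Scn4a with 0.

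Voltage-gated sodium channels carry the fast inward current of the action potential, through a pore-forming α subunit that β subunits accompany and anchor, and they are densest at the axon initial segment and at nodes. Voltage-gated calcium channels have pore-forming α1 subunits of the L, P/Q, N, R and T types, which admit calcium in response to depolarisation, while α2δ and β subunits help to bring them to the membrane. The γ subunits include a group, the TARPs, that accompany AMPA-type glutamate receptors rather than calcium channels. RGCs are the only retinal neurons that send axons to the brain, and they fire trains of sodium-driven action potentials along the optic nerve.

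RGCs of 129S1/SvImJ wild-type mice, aged 12 weeks and of both sexes, were purified from 10 pooled retinas per batch by binding to antibody against Thy1 and were profiled by droplet-based single-cell RNA-seq. By the study's methods, macrophages and amacrine cells had first been removed by immunopanning. Uninjured RGCs made up 6 libraries, and RGCs taken 2 weeks after ONC, which damages the axons behind the eye, made up 4. Those that remain at that time are survivors of the lesion, and nothing in the labels says whether libraries with neighbouring numbers came from separate mice, so the errors below measure the spread between libraries, which may be technical in part. Library totals ran from 2839693 to 23180399 UMIs and cells per library from 98 to 651, with 1683 uninjured and 1609 injured cell barcodes.

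Several libraries shared cells or stood apart from the rest. Injured 3 and injured 4 had 421 barcodes in common, 79.9% of the first and 89.4% of the second, and the paired profiles of a shared barcode correlated at a median of 0.821 against 0.622 for unlike barcodes, so their counts were averaged to 1 sample, leaving 3 injured samples. Uninjured 2 and uninjured 4 shared 1 barcode, and no other pair shared any. RNA of the fluorescent reporter mCherry, which the labels do not mention, was found in 86% and 84.3% of cells of injured 3 and 4, in 7.99% and 15% of injured 1 and 2, and in 0% of the uninjured cells. Xist, the RNA of the inactive X chromosome of female cells, was found in 62.1% and 67.4% of injured 1 and 2 cells, while no other library exceeded 0.569%, although both sexes are labelled. Counts of changed genes are therefore also given with either pair of injured libraries left out.

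Depth and RNA make-up moved with the condition too. Median UMIs per cell lay between 20437 and 34337 in uninjured libraries and between 11257 and 14695 in injured ones. The nuclear RNA Malat1 took 1.72% to 4.88% of UMIs in uninjured and 6.09% to 8.01% in injured libraries, and ribosomal protein genes 1.82% to 2.51% and 2.75% to 3.44%. Mitochondrial RNA took 2.84% to 5.69% of uninjured and 1.93% to 3.87% of injured UMIs. Within the uninjured group, libraries 5 and 6 had the lowest Malat1 shares, 1.72% and 1.83%, and many channel genes below split along the same line.

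Levels are given as CPM, a gene's UMIs scaled to a common total per sample after TMM scaling, which corrects totals for differences in composition. They were not scaled for gene length, so they are read between samples and not between genes. For each gene the lowest, the median and the highest of the 6 uninjured samples come first, and then the injured values in the order injured 1, injured 2 and the average of injured 3 and 4. Log2 fold changes are of injured over uninjured samples with their standard error (SE), and adjusted p-values come from the quasi-likelihood F-test in edgeR, corrected by the Benjamini-Hochberg method over 14234 tested genes and called below 0.05.

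The label of the cells was checked against marker genes. The 7 RGC markers summed to a lowest, median and highest of 5728, 6451 and 8165 CPM in uninjured samples and to 4273, 4860 and 5427 CPM in injured ones, with Sncg the most abundant, and 4 of the 7 were lower and 1 higher after injury by the same test. The 7 amacrine markers, led by Gad1, summed to 52.3, 137 and 179 CPM and 148, 109 and 56.7 CPM, with 1 of 6 tested markers higher. The 6 Müller glia markers, led by Glul, summed to 45.8, 53.2 and 73.9 CPM and 90.2, 109.6 and 86.5 CPM, with 2 of 4 tested higher and 1 lower. These sums were far below that of the RGC markers. The glial sum was higher in every injured sample, mainly through Glul, at 39.6 to 47.5 CPM in uninjured and 74.9 to 93.9 CPM in injured samples. Rlbp1 was also higher, while Apoe was lower, Slc1a3 was not called, and Aqp4 and Kcnj10 were not tested.

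The 6 bipolar markers summed to 78.7, 97.4 and 135 CPM and 146, 159.9 and 110.1 CPM, carried by Prkca, while Grm6, Trpm1, Cabp5 and Otx2 each averaged under 1 CPM. The 6 photoreceptor markers, led by Sag, summed to 3.37, 4.34 and 15.8 CPM and 10.5, 31.2 and 12.6 CPM, with Gnat1, Nrl and Arr3 under 1 CPM. Of 2 tested, Sag was not called and Pde6b was higher. Pde6b was at most 0.552 CPM in uninjured samples and 8.75, 11.9 and 10.7 CPM in injured ones. The 6 microglial markers, led by Cx3cr1, summed to 5.33, 7.38 and 17.4 CPM and 12.8, 18.9 and 6.98 CPM, with C1qa, C1qb, Tmem119 and Csf1r under 1 CPM and 1 of 2 tested higher. Astrocyte markers, led by Slc1a2 with Gfap and Aldh1l1 under 1 CPM, summed to 10.3, 15.3 and 19.2 CPM and 12.4, 17.1 and 10.3 CPM, and the 3 endothelial markers, led by Pecam1, to at most 4.36 CPM in any sample. No marker was at 0 UMIs over all libraries, and the part of other cell types in the channel results was not tested beyond the count without cells carrying their markers, given further on.

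After ONC, channel genes mostly fell. Of 36 members, 32 had enough UMIs to be tested; 20 were lower after injury and 3 higher, and 9 did not pass the threshold. Over all tested genes, 44.0% passed it, 22.7% as lower and 21.3% as higher, against 62.5% and 9.38% of the tested channel genes. Their median log2 fold change was −0.94, beside −0.03 over all tested genes. In 17 of the 32, every injured sample lay below every uninjured one, an arrangement found in 21.1% of all tested genes, and in 4 every injured sample lay above, as in 21.9% of all genes. The summed CPM of all members had a lowest, median and highest of 3658, 3879 and 4380 CPM in uninjured samples and was 2796, 2774 and 2756 CPM in injured ones, without overlap.

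**Figure D1:**
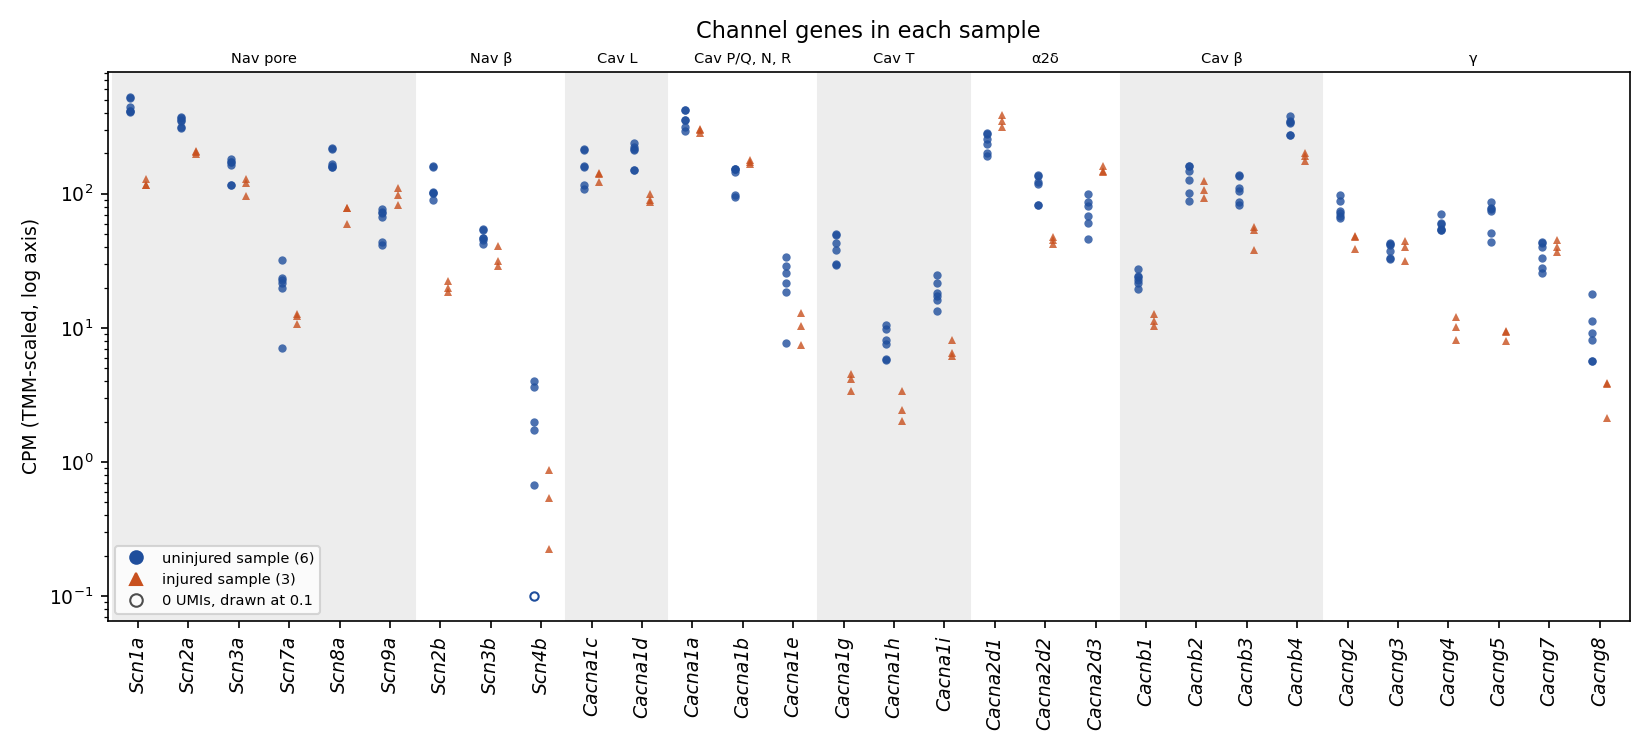
CPM of tested channel genes on a log axis, with 1 circle for each of the 6 uninjured and 1 triangle for each of the 3 injured samples, grouped by subunit class. Scn1a, Scn2b, Cacna1g, Cacng4 and Cacng5 show wide gaps between the groups, with injured Scn2b at 19.96, 18.6 and 22.3 CPM.

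**Figure D2:**
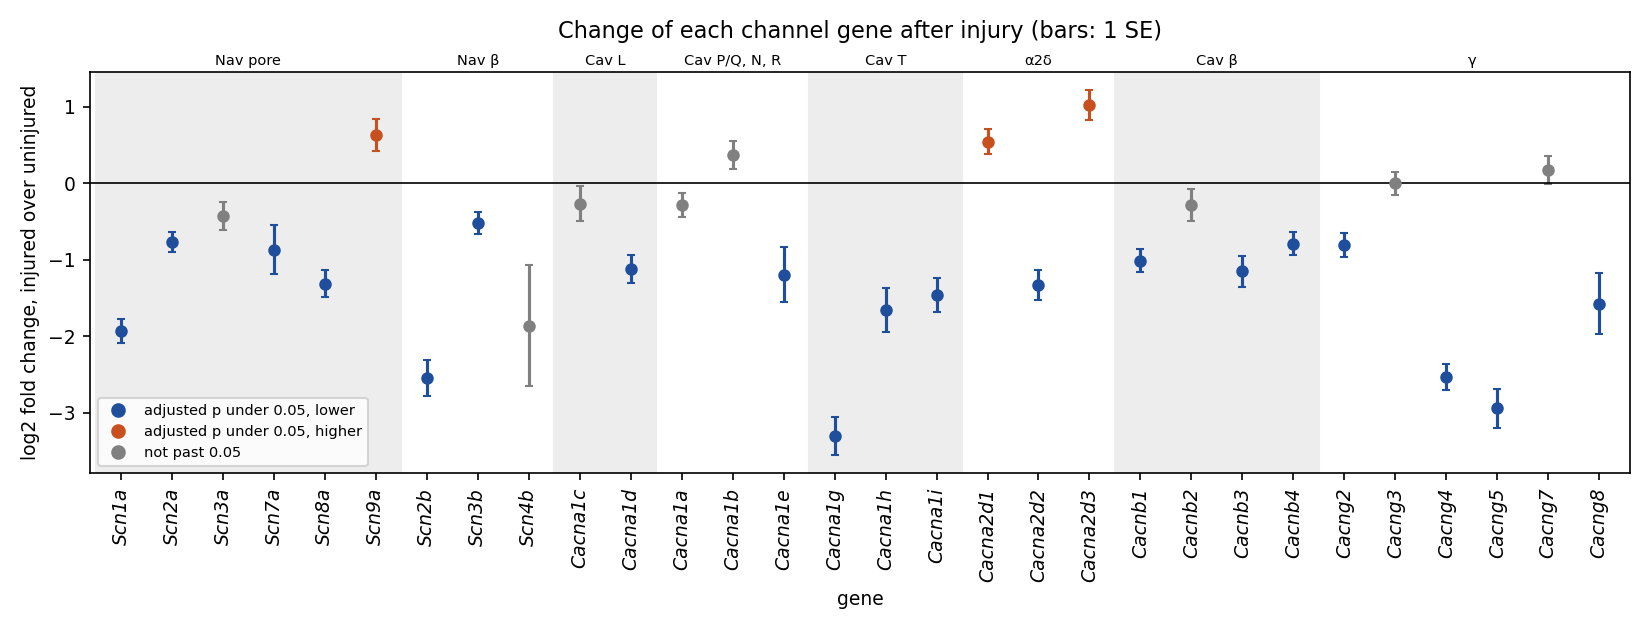
Log2 fold change of tested channel genes, injured over uninjured, with bars of 1 SE and colours for genes lower, higher and not past the threshold. Cacna1g lies lowest at -3.30 and Cacna2d3 highest at 1.02.

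Both the count of genes that fell and the count that rose depended on the choice of cells and libraries. Calls over all tested genes changed too, as given further on for some of these choices. With injured 1 alone left out, or injured 2 alone, 1 channel gene was higher, and 18 or 17 were lower. Leaving out injured 3 and 4 gave 3 channel genes higher and 15 lower, and leaving out injured 1 and 2 gave 1 higher and 16 lower, with the lone injured sample taken to vary like the others. Restricting the sums to cells without markers of another retinal class gave 3 higher and 19 lower, and to cells with at most 10% mitochondrial UMIs 3 and 18. Cells with 3 to 5% of their UMIs from Malat1 gave 2 higher and 15 lower of 29 tested. That limit left only 7 cells in uninjured 5 and 8 in uninjured 6. Cells with no Xist UMI, an alternative chosen after seeing the data, gave 3 higher and 19 lower. Against each pair of uninjured libraries taken alone (1 and 2, 3 and 4, 5 and 6), the mean injured level of all 23 called members differed in the same direction as in the full comparison.

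Among the sodium channel pore genes, 5 of 7 tested fell and 1 rose. Scn1a, the α subunit whose loss of function causes Dravet epilepsy in people, had a lowest, median and highest of 409, 429 and 530.1 CPM in uninjured and 115, 116 and 128 CPM in injured samples. All 3 injured values lay far below the lowest uninjured one, and the log2 fold change was -1.92 ± 0.16 (edgeR adjusted p = 1.96e-06). After every cell was thinned to 8000 UMIs, which removes the difference in depth between conditions, Scn1a was detected in 93.1% ± 2.78 of RGCs before and 52.2% ± 4.02 after injury. Scn8a, which encodes the main α subunit of mature axon initial segments and nodes, measured 158, 163 and 218 CPM and then 78.6, 59.7 and 78.7 CPM. Its injured samples were at less than the lowest uninjured level in every case, with a log2 fold change of -1.31 ± 0.17 (edgeR adjusted p = 7.76e-05).

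Scn2a, the α subunit of early initial segments and of unmyelinated axons, measured 307, 351 and 373 CPM in uninjured and 204, 207 and 198 CPM in injured samples. The injured samples were tightly grouped and below all uninjured ones, by a log2 fold change of -0.76 ± 0.13 (edgeR adjusted p = 0.000596), a smaller change than that of its neighbour Scn1a. Scn9a, best known from pain-sensing neurons, was the only sodium channel pore gene that rose, from 41.7, 69.8 and 77.1 CPM to 98.4, 111 and 81.9 CPM. Every injured sample exceeded every uninjured one, and uninjured 5 and 6 were the lowest with 43.9 and 41.7 CPM. The Scn9a log2 fold change was 0.63 ± 0.21 (edgeR adjusted p = 0.0267). The call was lost in 6 of 29 alternatives, whose adjusted p-values ran from 0.00249 to 0.447, with 0.0776 without injured 1 and 0.115 without injured 2.

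Scn3a, an α subunit expressed most strongly in the developing brain, measured 116, 168 and 182 CPM and 128, 119 and 96.4 CPM. Its groups overlapped, since uninjured 5 and 6 lay within the injured range, and the log2 fold change of -0.43 ± 0.18 missed the threshold (edgeR adjusted p = 0.0813). Scn7a, an atypical family member that responds to sodium concentration rather than voltage, measured 7.07, 22.2 and 32.3 CPM and 10.7, 12.4 and 12.8 CPM. Uninjured 1 was below all 3 injured samples and the other 5 were above them. The call of Scn7a, at a log2 fold change of -0.86 ± 0.33 (edgeR adjusted p = 0.0495), was lost in 19 of 29 alternatives, whose adjusted p-values ran from 0.00158 to 0.706. With 1 library left out, the Scn7a log2 fold change had adjusted p-values of 0.0703 without uninjured 2, 0.0956 without uninjured 3, 0.0758 without uninjured 4, 0.0579 without uninjured 5, 0.0592 without uninjured 6, 0.157 without injured 1, 0.116 without injured 2 and 0.0669 without injured 3. Scn11a, an α subunit of sensory neurons, had too few UMIs to be tested, at 0.691 ± 0.427 CPM in uninjured and 0.15 ± 0.259 CPM in injured samples (SD).

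The make-up of the sodium channel pore RNA shifted with these changes. The summed CPM of the 8 pore genes was 1064, 1210 and 1393 CPM at its lowest, median and highest in uninjured samples and 637, 626 and 596 CPM in injured ones, with no overlap. As a share of that sum, Scn1a went from 37.3% ± 1.72 to 19.3% ± 1.83 (SD over samples), and Scn8a from 14.7% ± 1.06 to 11.7% ± 1.92. Scn9a went from 5.09% ± 0.986 to 15.6% ± 1.97, and Scn3a from 12.6% ± 1.78 to 18.5% ± 2.05. Scn2a, whose level fell, took 28.3% ± 1.14 in uninjured and 32.7% ± 0.642 in injured samples. Scn2a thus fell in level while holding a larger share of a smaller sum.

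**Figure D3:**
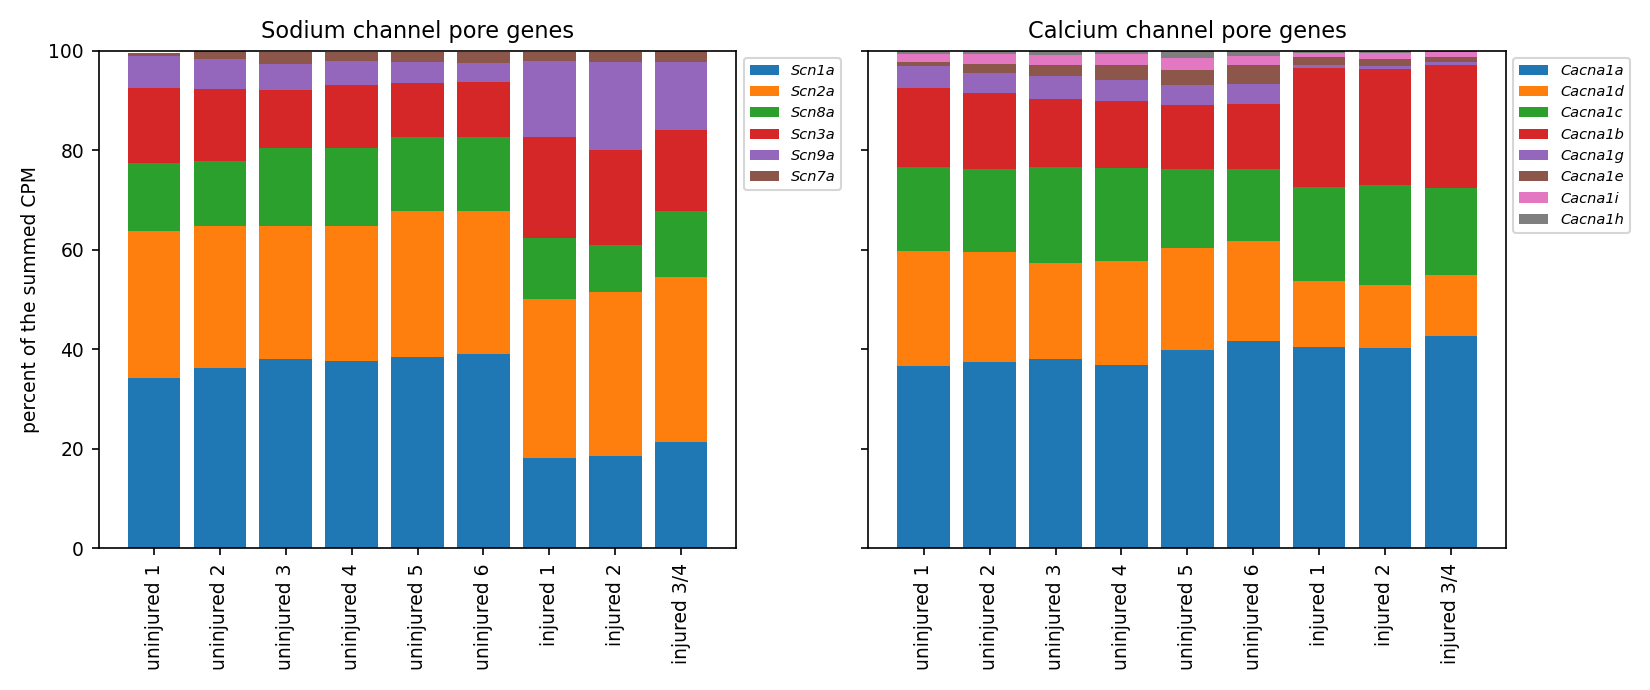
Stacked bars of each pore gene's percent of the summed CPM of sodium channel pore genes (left) and calcium channel pore genes (right), 1 bar per sample, leaving out genes that never reach 0.5%. The Scn1a share is about 37.3% in uninjured and 19.3% in injured samples, and the Cacna1g share shrinks from 4.22% to 0.559%.

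Of the sodium channel α genes, 5 stand side by side on mouse chromosome 2, which the rule did not use. In GRCm39, Scn3a (chr2:65287462-65397971), Scn2a (chr2:65451102-65597795), Scn1a (chr2:66101122-66271572), Scn9a (chr2:66310424-66465306) and Scn7a (chr2:66503769-66615367) follow in that order, Scn2a on the plus strand and the others on the minus strand. Scn1a and Scn9a lie 38.9 kb apart with no protein-coding gene between them, and they changed in opposite directions. Scn9a and Scn7a are 38.5 kb apart and also differed in direction. The call of Scn7a was lost in 19 of 29 alternatives, although its log2 fold change was negative in all 29. The gap between Scn3a and Scn2a was 53.1 kb, and that between Scn2a and Scn1a 503 kb with 3 protein-coding genes in it.

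The sequences around the starts of neighbours that moved apart, and of the genes with the largest rise and one of the largest falls, are shown with the motifs searched for. RefSeq's promoter table for GRCm38.p6, a build older than the one of the gene positions above, holds 250 bases before to 50 after the start, and 26 of the 36 members matched it with 37 promoters. Each is written 5′ to 3′ on the gene's strand, with capitals for the AP-1 motif TGANTCA, the cyclic AMP response element TGACGTCA and the GC box GGGCGG, read on both strands, so that the GC box also appears as CCGCCC. GC boxes may overlap each other.
Scn1a, chr2:66440788-66441087, minus strand: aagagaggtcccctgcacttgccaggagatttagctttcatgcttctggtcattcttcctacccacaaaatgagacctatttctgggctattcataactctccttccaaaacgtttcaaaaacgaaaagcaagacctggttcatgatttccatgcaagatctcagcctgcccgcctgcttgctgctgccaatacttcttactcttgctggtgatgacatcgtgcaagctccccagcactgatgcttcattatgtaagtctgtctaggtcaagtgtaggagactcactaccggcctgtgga
Scn9a, chr2:66634913-66635212, minus strand: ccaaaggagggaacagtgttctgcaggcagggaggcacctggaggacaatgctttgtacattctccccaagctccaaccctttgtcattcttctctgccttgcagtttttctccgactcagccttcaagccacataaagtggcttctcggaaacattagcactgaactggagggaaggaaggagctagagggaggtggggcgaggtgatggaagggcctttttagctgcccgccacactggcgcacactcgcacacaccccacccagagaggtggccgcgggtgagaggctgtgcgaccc
Cacng5, chr11:107915006-107915305, minus strand: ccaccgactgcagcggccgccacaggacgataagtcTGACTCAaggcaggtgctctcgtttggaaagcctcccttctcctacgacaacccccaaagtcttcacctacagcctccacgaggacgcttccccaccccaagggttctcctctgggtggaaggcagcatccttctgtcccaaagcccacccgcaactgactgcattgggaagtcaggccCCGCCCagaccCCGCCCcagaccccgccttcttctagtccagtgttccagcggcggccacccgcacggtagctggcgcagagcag
Cacna2d3, chr14:29721815-29722114, minus strand: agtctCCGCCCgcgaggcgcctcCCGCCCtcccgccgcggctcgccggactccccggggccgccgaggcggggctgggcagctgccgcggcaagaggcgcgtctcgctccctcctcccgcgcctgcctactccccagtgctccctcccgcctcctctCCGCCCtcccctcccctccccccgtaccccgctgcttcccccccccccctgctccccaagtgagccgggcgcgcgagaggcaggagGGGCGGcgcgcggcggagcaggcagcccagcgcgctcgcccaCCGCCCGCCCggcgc

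Neither the Scn1a nor the Scn9a window held any of the 3 motifs. The Cacng5 window held 1 AP-1 motif and 2 GC boxes, while the other Cacng5 promoter in the table, at chr11:107911313-107911612 and not shown, held none of the motifs, and the Cacna2d3 window 6 GC boxes. Among the matched members, the AP-1 motif was found for 1 of 15 genes that fell and for 0 of 3 that rose, beside 7.81% of the 32817 promoters of this length in the table. The cyclic AMP response element was found for none of these genes and in 1.79% of all promoters, and GC boxes for 7 of the 15 that fell, 2 of the 3 that rose and 4 of 6 not called, beside 35.6% of all. The counts of genes take a match in any promoter of a gene, while the percentages are of single promoters, so the shares are not directly comparable. A match is only an occurrence of these letters, and a window without one says nothing of the factors that bind them.

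Of the 4 sodium channel β genes tested, 2 fell. Scn2b, which is bound to the α subunit by a disulfide bridge and raises its surface density, had 89.3, 102 and 159.8 CPM in uninjured and 19.96, 18.6 and 22.3 CPM in injured samples. Uninjured 5 and 6 were the highest, and every injured sample was far below the lowest uninjured value, with a log2 fold change of -2.54 ± 0.23 (edgeR adjusted p = 5.28e-06). After thinning, Scn2b was detected in 61.6% ± 11.1 of RGCs before and 12% ± 4.05 after injury. Scn3b, which is attached without such a bridge, went from 42.1, 46.7 and 54.2 CPM to 31.5, 40.6 and 29 CPM. Its injured samples lay just under the uninjured range, at a log2 fold change of -0.51 ± 0.15 (edgeR adjusted p = 0.0132), and the call was lost in 3 of 29 alternatives (adjusted p from 0.000848 to 0.0869). The Scn3b log2 fold change had an adjusted p of 0.0674 without injured 1. Scn4b, the β subunit linked to resurgent sodium current, averaged 2.01 ± 1.59 CPM in uninjured and 0.546 ± 0.326 CPM in injured samples (SD) and did not pass the threshold.

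Of the calcium channel pore genes, 5 of 8 tested fell and 3 did not pass the threshold, and the 3 T-type genes were among those that fell. Cacna1g, which encodes a T-type channel that opens near the resting potential and supports burst firing, had 29.7, 40.5 and 49.9 CPM in uninjured and 4.55, 3.37 and 4.16 CPM in injured samples. The groups were separated by a wide gap, and the log2 fold change of -3.30 ± 0.25, a 9.88-fold fall, was the largest of the tested members (edgeR adjusted p = 1.09e-06). After thinning, it was detected in 25.6% ± 6.97 of RGCs before and 2.09% ± 0.579 after injury.

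Cacna1i, a T-type subunit of the thalamus and other brain regions, went from 13.4, 17.8 and 24.9 CPM to 6.48, 8.08 and 6.18 CPM. No injured sample reached the uninjured range, at a log2 fold change of -1.46 ± 0.22 (edgeR adjusted p = 0.000225). Cacna1h, the third T-type subunit, measured 5.73, 7.88 and 10.5 CPM and 2.45, 3.37 and 2.01 CPM. The injured samples again lay below all uninjured ones, with a log2 fold change of -1.65 ± 0.28 (edgeR adjusted p = 0.000541). Summed over the 3 T-type genes, the uninjured samples had 51.2, 63.5 and 81.9 CPM and the injured ones 13.5, 14.8 and 12.4 CPM.

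Of the L-type genes, whose channels signal to the nucleus, Cacna1d fell from 149, 213 and 239.7 CPM to 98.9, 89.8 and 86.2 CPM. Even uninjured 5 and 6, the lowest of their group, were above all injured samples, and the log2 fold change was -1.11 ± 0.18 (edgeR adjusted p = 0.000439). Cacna1c, the L-type subunit of heart and brain, measured 108, 160.3 and 215 CPM and 141, 142 and 123 CPM. The injured samples lay inside the uninjured range, above uninjured 5 and 6 and below the other 4, and the log2 fold change was -0.26 ± 0.23 (edgeR adjusted p = 0.369). Cacna1f, the L-type subunit of photoreceptor and bipolar cell terminals, was not tested, at 0.23 ± 0.224 CPM in uninjured and 0.223 ± 0.0468 CPM in injured samples (SD).

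Among the channels of presynaptic release sites, Cacna1a (P/Q-type) measured 292, 355 and 423 CPM in uninjured and 303, 285 and 301 CPM in injured samples. The groups overlapped through uninjured 5, which lay among the injured samples, with a log2 fold change of -0.28 ± 0.16 (edgeR adjusted p = 0.165). Cacna1b (N-type) measured 94.5, 149 and 154 CPM and 177, 166 and 173 CPM. All injured samples were above all uninjured ones, yet uninjured 1 to 4 came close and the log2 fold change of 0.37 ± 0.18 did not pass the threshold (edgeR adjusted p = 0.118). Cacna1e (R-type) went from 7.75, 23.6 and 33.8 CPM to 13, 10.3 and 7.52 CPM. Uninjured 1, the lowest of its group, lay among the injured samples, and the call, at a log2 fold change of -1.19 ± 0.36 (edgeR adjusted p = 0.0186), was lost in 5 of 29 alternatives (adjusted p from 0.00137 to 0.222). The Cacna1e log2 fold change had an adjusted p of 0.0613 without injured 2.

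Within the summed RNA of the 9 calcium channel pore genes, the share of Cacna1b went from 14.1% ± 1.25 to 23.9% ± 0.637 and that of Cacna1d from 21% ± 1.43 to 12.7% ± 0.503. Cacna1a took 38.4% ± 1.99 in uninjured and 41.2% ± 1.4 in injured samples. The sum itself was 732, 959 and 1147 CPM in uninjured and 747, 708 and 704 CPM in injured samples. Here the groups overlapped, since uninjured 5 had 732 CPM, less than injured 1.

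The α2δ subunits, extracellular proteins that help to bring calcium channels to the surface, held 2 of the 3 channel genes that rose. Cacna2d3 had 46, 74.6 and 99.5 CPM in uninjured and 145, 147 and 161 CPM in injured samples. The injured samples were all above the highest uninjured one, at a log2 fold change of 1.02 ± 0.20 (edgeR adjusted p = 0.00147), the largest rise among the tested members. After thinning, Cacna2d3 was detected in 30.4% ± 10.3 of RGCs before and 51.1% ± 2.62 after injury. Cacna2d1 rose from 189.6, 244 and 282 CPM to 351, 389 and 314 CPM. These groups too did not overlap, but the call, at a log2 fold change of 0.55 ± 0.16 (edgeR adjusted p = 0.0162), was lost in 5 of 29 alternatives (adjusted p from 0.00155 to 0.336). The Cacna2d1 log2 fold change had adjusted p-values of 0.0509 without injured 1 and 0.0787 without injured 2.

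Cacna2d2 moved the other way, from 82.4, 121 and 137 CPM to 47.6, 45.6 and 42.4 CPM. Its injured samples lay below all uninjured ones, with uninjured 5 and 6 the nearest, and the log2 fold change was -1.32 ± 0.20 (edgeR adjusted p = 0.0002). Of the summed α2δ RNA, Cacna2d2 went from 26.3% ± 3.12 to 8.26% ± 0.471 and Cacna2d3 from 17.3% ± 4.08 to 27.6% ± 3.03. The fourth α2δ gene, Cacna2d4, was not tested, at 1.09 ± 0.611 CPM in uninjured and 0.993 ± 0.166 CPM in injured samples (SD). Cacna2d3 and Cacna1d, which changed in opposite directions, are neighbours on chromosome 14 at a distance of 317 kb, with 3 protein-coding genes between them.

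Of the 4 calcium channel β genes, whose cytoplasmic products bind the pore and set its gating, 3 fell. Cacnb4 went from 273, 340.2 and 380.0 CPM to 202, 189.8 and 175 CPM. The injured samples lay below the uninjured range, at a log2 fold change of -0.79 ± 0.15 (edgeR adjusted p = 0.0014). Cacnb3 went from 81.8, 108 and 139 CPM to 53.9, 56.1 and 38.4 CPM. Uninjured 5 and 6 were the highest here, no injured sample reached the uninjured range, and the log2 fold change was -1.15 ± 0.21 (edgeR adjusted p = 0.000837).

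Cacnb1, the β subunit also used by skeletal muscle, went from 19.5, 23.4 and 27.6 CPM to 12.8, 10.3 and 11.3 CPM. The groups did not overlap, and the log2 fold change was -1.01 ± 0.15 (edgeR adjusted p = 0.000196). Cacnb2 measured 87.9, 137 and 161 CPM and 125, 92.7 and 107 CPM. Injured samples lay within the uninjured range, with a log2 fold change of -0.28 ± 0.21 (edgeR adjusted p = 0.302). Against uninjured 5 and 6 alone its log2 ratio of means was 0.19, and against 3 and 4 it was -0.58.

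Of the 6 γ genes tested, 4 fell. Cacng5, one of the TARPs, went from 43.7, 75.7 and 87.2 CPM to 8.05, 9.43 and 9.4 CPM. The gap between the groups was wide although uninjured 5 and 6 were lower than the other 4, and the log2 fold change was -2.94 ± 0.25 (edgeR adjusted p = 3.11e-06). Cacng4, another TARP, went from 53.2, 56.8 and 70.4 CPM to 12.1, 10.1 and 8.19 CPM. All injured samples were far below the lowest uninjured one, at a log2 fold change of -2.53 ± 0.17 (edgeR adjusted p = 4.37e-07). After thinning, Cacng4 was detected in 37% ± 4.09 of RGCs before and 7.09% ± 1.77 after injury, and Cacng5 in 38.9% ± 11 of RGCs before and 5.58% ± 0.672 after injury.

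Cacng2, which encodes stargazin, the TARP lost in the stargazer mouse, went from 65.9, 73.2 and 98.3 CPM to 48.3, 47.4 and 38.7 CPM. The injured samples lay below all uninjured ones, by a log2 fold change of -0.81 ± 0.16 (edgeR adjusted p = 0.0016). The TARP gene Cacng8 was also lower, at 9.63 ± 4.59 CPM in uninjured and 3.27 ± 0.974 CPM in injured samples (SD), and lost its call in 3 of 29 alternatives (adjusted p from 8.77e-05 to 0.066). The TARP genes Cacng3 and Cacng7 did not pass the threshold, at 38.4 ± 4.66 CPM in uninjured and 38.7 ± 6.43 CPM in injured samples and at 35.6 ± 7.84 CPM in uninjured and 40.5 ± 4.07 CPM in injured samples respectively. Cacng1, the γ subunit of skeletal muscle calcium channels, was not tested, at 0.876 ± 0.565 CPM in uninjured and 0.133 ± 0.118 CPM in injured samples.

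Position linked several γ genes too. Cacng1, Cacng4 and Cacng5 follow each other on the minus strand of chromosome 11, in GRCm39 at chr11:107591493-107607408, chr11:107623183-107685662 and chr11:107765431-107811030, with no protein-coding gene between them, and the tested pair fell together. Cacng7 and Cacng8 are 22.5 kb apart on chromosome 7, and only Cacng8 was called. Scn2b and Scn4b are 8.23 kb apart on chromosome 9, Scn2b called and Scn4b not. The tested members spanned a median of 111 kb of the genome, beside 28.2 kb for all tested genes with a single annotated position (98.1% of them), and Cacna2d3 was the longest at 818 kb. Of genes spanning over 100 kb, 25.9% were higher and 24.3% lower after injury. Among the 18 tested members of that length, 3 were higher and 10 lower. Of the 36 members, 20 overlapped another listed gene on the opposite strand and 0 on the same strand, and RNA of such partners was not told apart from theirs, since the strand setting behind these counts is not given in the sources used here.

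The share of RGCs with at least 1 UMI followed the levels. Thinned to 8000 UMIs, 26 of the 32 tested genes were found in a smaller share of injured than of uninjured cells, and for 0 of the 23 called genes did the thinned share go against the CPM. Shallower cells were left out, 29 of 1683 uninjured and 233 of 1609 injured. Without thinning, 31 of 32 shares were lower after injury, and Scn9a, Cacna2d1, Cacna1b, Cacng3 and Cacng7 turned their order, so unthinned shares are not compared between conditions. Unthinned values were 99.4% and 67% for Scn1a, 92.8% and 24.9% for Scn2b, 62.2% and 5.43% for Cacna1g, 53.1% and 62.7% for Cacna2d3, 70.1% and 12% for Cacng4, and 74% and 11.1% for Cacng5.

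For the level that free RNA in droplets can give, the bipolar gene Grm6, which RGCs should lack, appeared after thinning in 0.0918% ± 0.161 of cells before injury and 0.0362% ± 0.0628 after it, and the endothelial gene Cldn5 in 0% of both. Scn4b was at 0.908% ± 0.885 and 0.155% ± 0.164. Scn11a, Cacna1f, Cacna2d4 and Cacng1 were also each found in under 1% of cells in either condition, and whether such low shares come from expression or from free RNA was not tested.

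**Figure D4:**
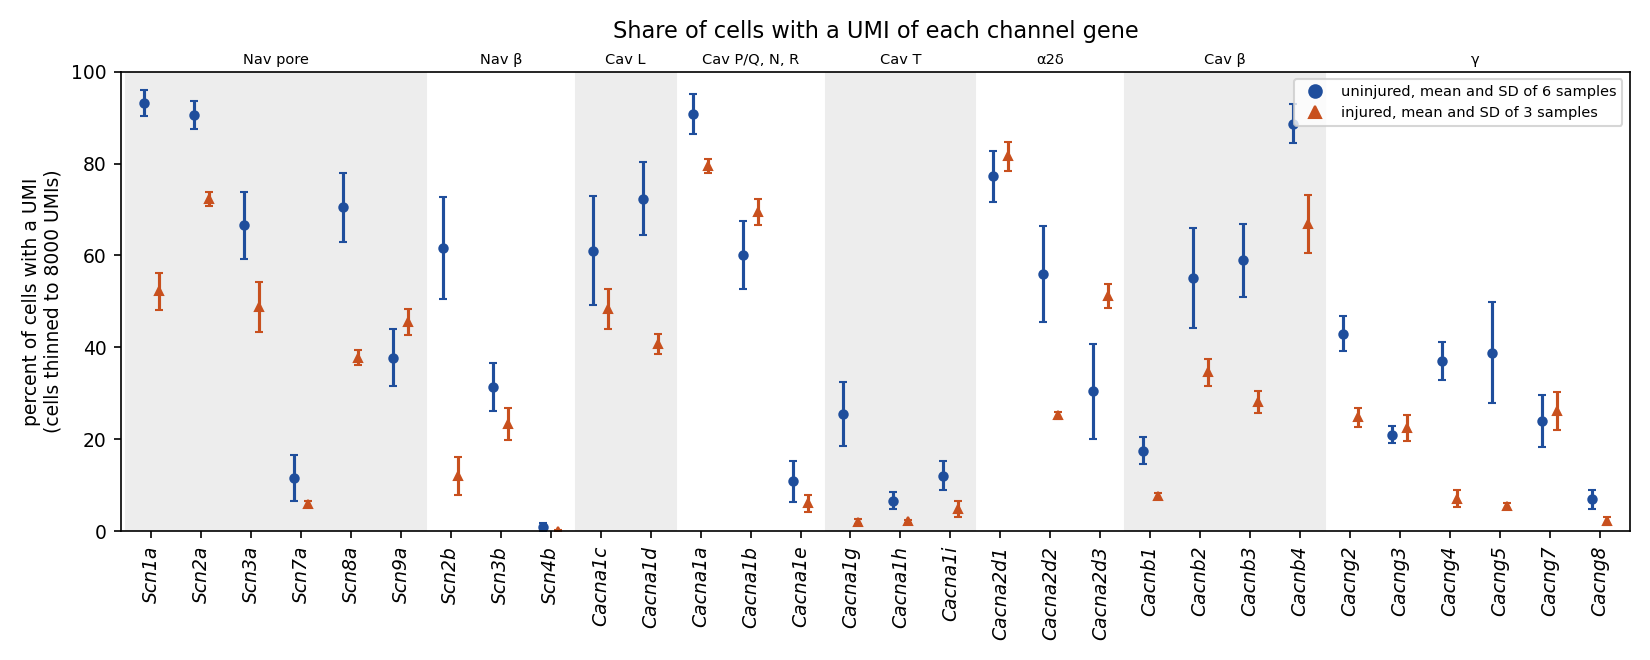
Percent of cells with at least 1 UMI of tested channel genes after thinning to 8000 UMIs, as the mean and SD of 6 uninjured samples (circles) and 3 injured samples (triangles). Scn1a drops from 93.1% to 52.2% and Cacna1g from 25.6% to 2.09%, while Cacna2d3 goes from 30.4% to 51.1%.

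Channel genes also varied among uninjured RGCs, which is given as a description with no test. Cells with at least 3 UMIs of Opn4, the gene of melanopsin, which makes a class of RGCs sensitive to light by itself, numbered 57 over the 6 libraries, 6 to 14 in each. Here CPM is of the UMIs of the class itself. Scn1a was 179.5 ± 106 CPM (mean and SD of 6 libraries) in these cells and 476 ± 74.4 CPM in cells with neither melanopsin nor alpha markers, lower in 6 of 6 libraries. Scn9a was the reverse, at 123 ± 58.9 CPM against 61 ± 15.9 CPM, higher in 6 of 6.

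Melanopsin cells also had more Cacna1h, 31.6 ± 12.9 CPM against 6.76 ± 1.71 CPM, and more Scn3b, 79.8 ± 18.1 CPM against 47.7 ± 6.19 CPM, each in 6 of 6 libraries. Cacna1g, 20.8 ± 10.6 CPM against 41.6 ± 11 CPM, was lower in 6 of 6. Cacnb4, 189 ± 43.3 CPM against 341 ± 62.8 CPM, and Cacnb3, 61.3 ± 18.9 CPM against 113 ± 19.5 CPM, were also lower in 6 of 6. Cells with at least 3 Spp1 UMIs and at least 1 Kcng4 UMI, marks of the large alpha RGCs, numbered only 7, in 4 libraries, and 3 of them also met the Opn4 minimum and count in both classes. In them Scn8a was 378 ± 38.9 CPM against 183 ± 38.2 CPM in cells with neither mark, higher in 4 of 4 libraries. Scn4b had 14 UMIs in the 7 cells and 97 in the 1622 cells with neither mark, and was higher in 3 of 4 libraries.

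Genes whose products act with these channels were taken from 4 lists. Of 61 symbols, 59 were listed in the data and 55 could be tested, of which 10 were higher and 24 lower after injury, with a median log2 fold change of −0.42. Anchors and partners of sodium channels had 3 higher and 7 lower of 15. The sodium leak channel complex had 1 higher and 2 lower of 5, and calcium channel partners 3 and 3 of 15. Calcium release and clearance had 3 higher and 12 lower of 20. Over all tested genes 21.3% were higher and 22.7% lower. These counts depended on the setting. In cells with a Malat1 share of 3 to 5%, 6 partner genes were higher, and with similar libraries summed 12 were lower. Calls over all genes fell too, to 1859 higher and 1669 lower of 10725 in those cells. With similar libraries summed they fell to 2114 higher and 2171 lower of 15601.

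The largest rise among partner genes of at least 20 CPM was that of Stac, an adaptor that binds L-type channels and slows their inactivation, from 0, 1.51 and 2.8 CPM to 24, 24.7 and 19.6 CPM. Only injured samples held it at a sizeable level, with a log2 fold change of 3.95 ± 0.35 (edgeR adjusted p = 4.24e-06). Cntnap2, a cell adhesion protein of the zone beside the node, went from 1336, 1500 and 1826 CPM to 5037, 5079 and 4222 CPM. Every injured sample was above every uninjured one, at a log2 fold change of 1.64 ± 0.17 (edgeR adjusted p = 1.13e-05).

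The largest fall was that of Fgf11, an intracellular relative of fibroblast growth factors that binds sodium channel α subunits, from 25.3, 57.7 and 60.3 CPM to 12.1, 7.64 and 8.59 CPM. The groups did not overlap, and the log2 fold change was -2.39 ± 0.31 (edgeR adjusted p = 8.30e-05). Slc8a2, a sodium-calcium exchanger that extrudes calcium, went from 22, 25.4 and 28.6 CPM to 8.4, 4.94 and 6.45 CPM. Its injured samples were all below the uninjured range, at a log2 fold change of -1.94 ± 0.19 (edgeR adjusted p = 7.54e-06).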

How the data were processed

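The authors deposited UMI counts per gene and cell for each of the 10 libraries, made per the submitters' notes with Cell Ranger 7.0.1 on mm39. The labels name a v3 kit, while the study's methods name other versions, of Cell Ranger too, run with default parameters. The intron and strand settings behind the deposited counts are not given in the sources used here. All deposited barcodes were kept, and no doublet caller was run. Counts were summed over the cells of a sample, with injured 3 and 4 averaged and rounded, and 6 uninjured were compared with 3 injured samples in edgeR 4.0.16 (R 4.3.3) with filterByExpr, TMM factors and robust quasi-likelihood tests, checked on simulated data. limma 3.58.1 and DESeq2 1.42.0 served as alternatives, and Python 3.11.15 with numpy 2.4.6 for all else, with random seed 54 for thinning. Values in every sample were given for called pore genes, called auxiliary genes of at least 20 CPM and uncalled genes of at least 100 CPM in either condition, and for the 2 largest rises and falls among partner genes of at least 20 CPM. Members and lists were chosen with earlier results of these data known. The p-values measure the spread between libraries, which may be technical in part. Gene positions are from GENCODE for GRCm39. Some genes of the set and lists enter the counts and sums but are not reported here.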

Additional observations from a re-analysis of the deposited data

Results flagged for a closer look

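No single sample stood out by the criterion applied here. For 32 tested channel genes and the 4 partner genes described, the gap of the highest or lowest of the 6 uninjured samples to its neighbour, divided by the range, stayed under Dixon's critical value of 0.625 in each of 36 genes, and the 3 injured samples were too few to test.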

How the results depend on the processing

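The 32 tested channel genes and the 4 partner genes were recomputed under 29 alternatives, 28 planned and 1 chosen after seeing the data. Of these values, 954 kept their direction and side of the threshold, 53 lost their call, 18 gained one and 2 turned direction. Both turns, to 0.53, came with libraries 1 to 4 alone, without and with the replicate number as a block. The count of channel genes higher after injury was 1 in place of 3 with library totals alone, with similar libraries summed (uninjured 1 and 2, 3 and 4, 5 and 6, injured 1 and 2, 3 and 4), and with injured 1 and 2 left out. Each time Scn9a and Cacna2d1 lost their calls and Cacna2d3 kept its. Leaving out 1 library at a time gave 1 to 3 genes higher, with 1 without injured 1 and 1 without injured 2, and 17 to 20 lower. Partner genes higher numbered 8 to 11 and lower 17 to 27 when 1 library was left out. Partner genes higher were 6 when cells were limited to a Malat1 share of 3 to 5% and 6 with injured 1 and 2 left out, and partner genes lower were 12 with similar libraries summed and 9 with injured 1 and 2 left out.

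Equal library numbers did not pair the samples. The deviations of same-numbered libraries correlated between -0.0592 and 0.0119, and none of the 4 injured libraries correlated best with the uninjured library of its own number. With the replicate block, libraries 1 to 4 gave 4 channel genes higher and 23 lower, against 4 and 24 without it.

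Over all tested genes, 3026 higher and 3230 lower calls became 1859 and 1669 in cells limited to that Malat1 share, 1727 and 1433 with injured 1 and 2 left out, and 2295 and 2001 in limma-voom with a random block for each pair of like libraries, where channel genes were 3 higher and 17 lower. All 64 shares of cells with a UMI moved by more than 1 SD without thinning.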

Other observations

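The comparison has limits. Injured RGCs are those that remained 2 weeks after the lesion, and loss of RGC types was not told apart from change within cells. The 3 injured samples came from 4 libraries, of which injured 1 and 2 differed from injured 3 and 4 in Xist and mCherry RNA. Depth per cell, Malat1 share and condition moved together, and adjustment for depth, RNA quality or marker levels in the model was not tested. RNA levels do not give channel protein or current.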
